A study of Mus musculus with 6 samples.

Results

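Sterol and fatty acid synthesis was followed through 32 genes, taken by gene symbol as members of the pathway, out of 25701 genes in the table. They comprise 5 regulators of the pathway, 18 genes of the sterol arm and 9 genes of the fatty acid arm. All 32 passed the filter on low values and were among the 15372 genes tested. PolyA RNA was sequenced from cardiac progenitor (CP) cells differentiated from 46C, a mouse embryonic stem cell (ESC) line, in 3 libraries of control cells (46C-Ctrl) and 3 libraries labelled Zhx1-KO, called the Zhx1-KO libraries after that label. The Zhx1 protein has zinc fingers and homeobox domains, and the comparison asks which genes differ at the CP stage when it has been deleted. The deletion was made in wild-type 46C ESCs with CRISPR/Cas9, using guides at the start and the stop of Zhx1 in the vector pX330. Edited ESCs were taken through a drug selection, the drug not being named, and proper lines were picked by PCR. The study's mouse differentiation media held ascorbic acid throughout, joined next by BMP4, activin A and VEGF, and last by VEGF, FGF10 and bFGF. No sort, other treatment or other allele is given for the CP cells of either group, and how many clones were used is not stated.

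Cells make cholesterol and fatty acids from acetyl-CoA, and the genes of both routes share the SREBP transcription factors, which are held in the endoplasmic reticulum by SCAP and the INSIG proteins while sterols are plentiful. When sterols run low, SCAP carries SREBP to the Golgi, where it is cut and released to the nucleus. SREBP2, from Srebf2, is known mainly for sterol genes and SREBP1, from Srebf1, mainly for fatty acid genes, and NF-Y at CCAAT boxes and SP1 at GC boxes are known partners of both at promoters.

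Values are normalized counts, that is, reads per gene that the authors scaled to a common depth, and are given for replicates 1, 2 and 3 in that order. A gene was called when its limma adjusted p, over all genes tested, was under 0.05, and fold changes are log2 differences of value + 1, Zhx1-KO over 46C-Ctrl, with their standard error (SE). The libraries held 13769967 to 15940874 recovered reads. Zhx1 itself had 460, 181 and 457 normalized counts in 46C-Ctrl and 225, 325 and 308 in the Zhx1-KO libraries, so the groups overlapped (log2 fold change -0.25, SE 0.35, limma adjusted p = 0.579). The transcript level therefore does not check the labels. Mitochondrial genes took 2.77% of 46C-Ctrl replicate 2 and 1.72% to 1.87% of the other libraries. The groups also differed by chromosome: on chromosome 11, 675 of 1185 genes tested were higher and 114 lower, with a median log2 fold change of 0.42. On chromosome Y, 6 of 11 genes tested were lower and 0 higher, and among them Ddx3y fell from a mean of 644 normalized counts to 0. Of the 32 genes, 4 lie on chromosome 11, namely Srebf1, Acly, Acaca and Fasn.

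The sterol arm was mostly lower and the fatty acid arm mostly higher in the Zhx1-KO libraries. Of the 32 genes, 8 were called higher and 14 lower, while 52.0% of all genes tested were called, 25.6% higher and 26.4% lower. In the sterol arm, 1 of 18 genes was higher, 10 were lower and 7 were not called, with a median log2 fold change of -0.31. In the fatty acid arm, 6 of 9 genes were higher, 2 were lower and 1 was not called, with a median of 0.23, and after removal of each chromosome's median 5 were higher and 3 lower, with a median of 0.25. Among its 7 genes other than Acss2 and Acly, 4 were higher and 2 lower, with a median of 0.16. With chromosome medians removed, 3 of these 7 were higher and 3 lower, with a median of -0.07. Over all genes tested the median was 0.01 and the median size of the change, whichever its sign, was 0.41, which is more than the 0.31 of the 32 genes. The groups of 3 libraries did not overlap for 8 genes that were higher and 16 that were lower, against 60.8% of all genes tested without overlap in either direction. Changes beyond 2-fold were found in 3 of the 32 genes, Acss2, Ebp and Hsd17b7, against 3147 of the 15372 genes tested, a larger share.

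The arms lay apart in each of the 3 Zhx1-KO libraries. The median of the sterol arm minus that of the fatty acid arm, each gene set against its own 46C-Ctrl mean on the log2 scale, was -0.59, -0.51 and -0.46 in the Zhx1-KO libraries and -0.09, 0.04 and 0.06 in 46C-Ctrl. Between the arms' median log2 fold changes the difference was -0.54. After the median of each gene's chromosome was taken away, the values were -0.62, -0.48 and -0.47. No test is given for these medians, because the genes were chosen with earlier results of these data known. In bulk RNA, fewer cells of a type that expresses a gene and less of its RNA per cell cannot be told apart.

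**Figure D1:**
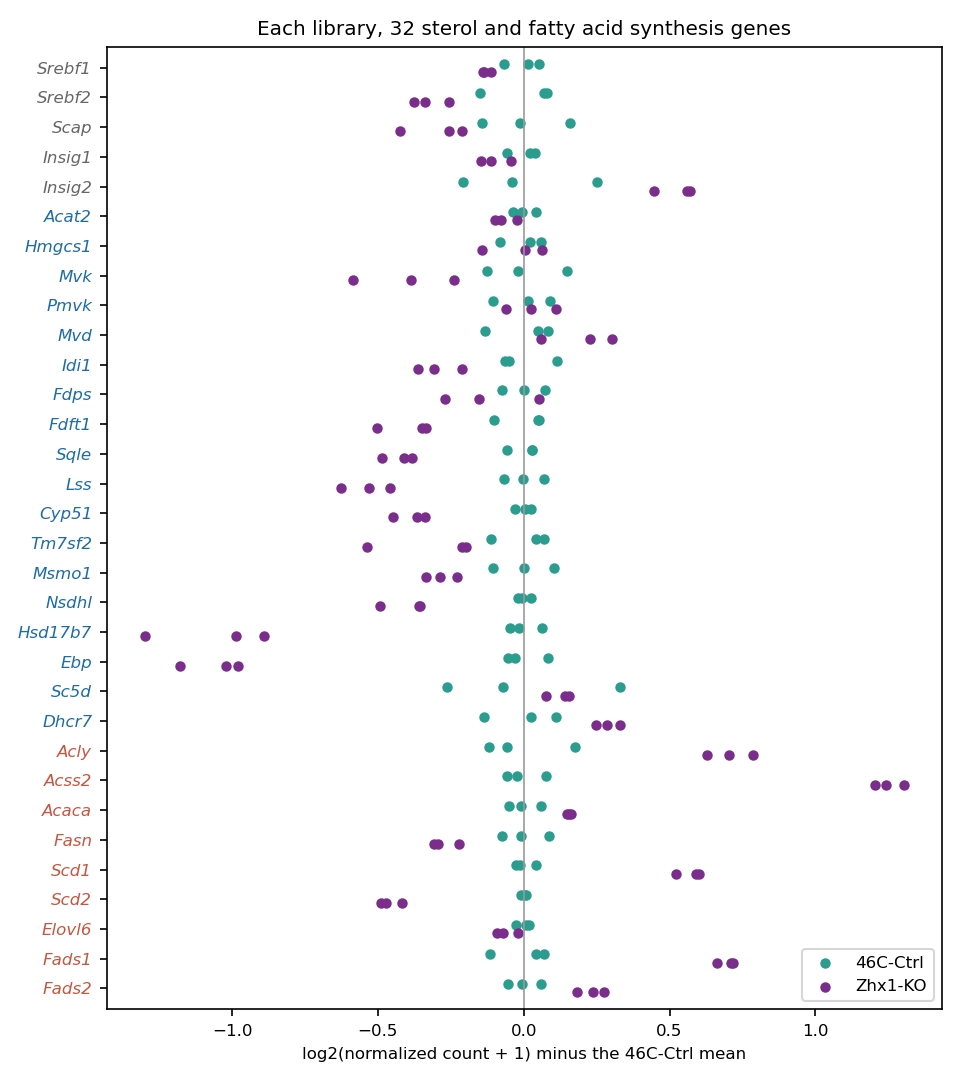
Level of each of the 32 genes in the 6 libraries, as log2(normalized count + 1) minus the 46C-Ctrl mean of the gene, with 1 point per library and genes in pathway order (names in grey for regulators, blue for the sterol arm, red for the fatty acid arm). The Zhx1-KO points lie mostly left of 46C-Ctrl in the sterol arm, farthest at Hsd17b7 and Ebp, and mostly right of it in the fatty acid arm, where Scd2 and Fasn lie to the left.

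Promoter sequence around the start site was looked at because these genes are known to share control through short motifs. RefSeq windows on GRCm38.p6, from 250 bases before to 50 after a start, were found for 26 of the 32 genes, in 34 windows. A sterol response element (TCACNCCAC), CCAAT box (CCAAT) and GC box (GGGCGG) were searched on both strands, and a match on the other strand is printed as its reverse complement. CCAAT was present in 14 of 18 sterol arm windows (77.8%), 3 of 6 fatty acid arm windows (50%) and 37.9% of the 14226 windows of genes tested. GGGCGG was present in 83.3% of sterol arm windows, 50% of fatty acid arm windows and 61.9% of windows of genes tested. The sterol response element was present in 1 of the 34 windows, that of Hmgcs1, and in 1.12% of windows of genes tested. A match of letters is a description and was not tested as a binding site. The stretches below were chosen to show the window with the sterol response element (Hmgcs1), the one with the most CCAAT boxes (Mvk), the gene with the deepest fall (Ebp), a fatty acid gene that fell (Fasn) and 1 window of the regulator that rose (Insig2). They run 5′ to 3′ on the gene's strand, with all matches to the 3 motifs in capitals, and no annotated exon lies in them.
Hmgcs1 (chr13:119690104-119690320, plus strand): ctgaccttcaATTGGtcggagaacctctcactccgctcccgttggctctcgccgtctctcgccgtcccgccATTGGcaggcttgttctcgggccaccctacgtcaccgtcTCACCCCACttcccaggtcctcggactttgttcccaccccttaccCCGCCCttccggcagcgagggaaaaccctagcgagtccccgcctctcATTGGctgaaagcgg
Mvk (chr5:114444086-114444268, plus strand): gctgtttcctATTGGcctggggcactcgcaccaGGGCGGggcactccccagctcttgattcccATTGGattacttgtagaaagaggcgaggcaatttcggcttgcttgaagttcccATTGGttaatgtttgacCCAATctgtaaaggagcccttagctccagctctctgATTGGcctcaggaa
Ebp (chrX:8193553-8193692, minus strand): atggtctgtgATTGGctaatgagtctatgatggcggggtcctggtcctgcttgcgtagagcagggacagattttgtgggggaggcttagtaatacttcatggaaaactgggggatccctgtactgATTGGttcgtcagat
Fasn (chr11:120824592-120824647, minus strand): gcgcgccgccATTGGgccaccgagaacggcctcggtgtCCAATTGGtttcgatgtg
Insig2 (chr1:121332604-121332735, minus strand): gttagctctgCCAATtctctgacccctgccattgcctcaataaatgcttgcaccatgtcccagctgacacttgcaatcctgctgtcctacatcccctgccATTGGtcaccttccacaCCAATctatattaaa
In Fasn the capitals CCAATTGG hold a CCAAT box on each strand that overlap. The stretches were cut around the CCAAT boxes before the start, so all 5 hold such boxes by the way they were chosen. The other windows of Insig2 hold none. Among these genes Mvk, Ebp and Fasn were lower, Insig2 was higher and Hmgcs1 was not called. Of the other genes that were higher, Acss2, Acly and the most downstream window of Dhcr7 hold CCAAT boxes. The other windows of Dhcr7 and those of Acaca and Fads2 hold none, and Scd1 and Fads1 had no window.

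Among the regulators, Srebf2 was lower and Insig2 higher. Srebf2, the gene of SREBP2, had 8145, 6987 and 8206 normalized counts in 46C-Ctrl (7779 ± 687, mean ± SD, n = 3) and 6136, 6491 and 5975 in the Zhx1-KO libraries (6200 ± 264, SD, n = 3), a log2 fold change of -0.32 (SE 0.07, limma adjusted p = 0.00638). The groups did not overlap, with 46C-Ctrl replicate 2 lowest of its group. Insig2, which retains SCAP in the endoplasmic reticulum, had 266, 366 and 299 in 46C-Ctrl (311 ± 51.1, SD, n = 3) against 420, 458 and 455 (444 ± 21.0, SD, n = 3), a log2 fold change of 0.53 (SE 0.12, limma adjusted p = 0.00882). All 3 Zhx1-KO libraries were above all of 46C-Ctrl. Insig1, its paralogue and itself a known SREBP target, had 1231, 1316 and 1299 against 1157, 1186 and 1244 and was not called (log2 fold change -0.10, SE 0.06, limma adjusted p = 0.175). The ratio of Insig2 to Insig1 was 0.242 ± 0.0326 (SD, n = 3) in 46C-Ctrl and 0.372 ± 0.0126 (SD, n = 3) in the Zhx1-KO libraries.

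Scap, the escort of SREBP, had 1269, 1029 and 1127 normalized counts in 46C-Ctrl and 951, 982 and 847 in the Zhx1-KO libraries, with no overlap (log2 fold change -0.30, SE 0.09, limma adjusted p = 0.0288). Its call was lost in 6 of 18 alternative settings, among them those without 46C-Ctrl replicate 1 (adjusted p = 0.0840), without 46C-Ctrl replicate 3 (0.0641), without Zhx1-KO replicate 1 (0.0541) and without Zhx1-KO replicate 3 (0.0932), all from limma. Srebf1, the gene of SREBP1, had 2309, 2124 and 2247 against 2059, 2025 and 2018. These groups did not overlap, and the gene was not called (log2 fold change -0.13, SE 0.05, limma adjusted p = 0.0610). Srebf1 lies on chromosome 11, where the median gene was higher. Relative to that chromosome its log2 fold change was -0.56 (limma adjusted p = 9.5e-05), and without 46C-Ctrl replicate 2 its adjusted p from limma was 0.0257.

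In the mevalonate segment, which turns acetyl-CoA into farnesyl diphosphate, 2 of 7 genes were lower and 5 were not called, a share near the 26.4% of all genes tested that were lower. Mvk, mevalonate kinase, had 611, 658 and 740 normalized counts in 46C-Ctrl (670 ± 65.2, SD, n = 3) and 444, 565 and 510 in the Zhx1-KO libraries (507 ± 60.5, SD, n = 3), a log2 fold change of -0.40 (SE 0.11, limma adjusted p = 0.0168). Without 46C-Ctrl replicate 3 its adjusted p from limma was 0.0568. Idi1, the isopentenyl diphosphate isomerase, had 1884, 2135 and 1902 against 1592, 1532 and 1700, a log2 fold change of -0.29 (SE 0.07, limma adjusted p = 0.00835). Both genes were without overlap between the groups. Hmgcs1, the cytosolic HMG-CoA synthase, had 4448, 4780 and 4909 against 4727, 4261 and 4923, which overlapped (log2 fold change -0.02, SE 0.07, limma adjusted p = 0.781).

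The other 4 genes of this segment were not called and overlapped between the groups. Acat2, the cytosolic thiolase, had 2334, 2383 and 2466 normalized counts in 46C-Ctrl and 2267, 2357 and 2238 in the Zhx1-KO libraries (log2 fold change -0.07, SE 0.05). Pmvk, phosphomevalonate kinase, had 528, 486 and 557 against 501, 564 and 532 (0.02, SE 0.08). These values lie within each other's range or close to it. Mvd, the mevalonate diphosphate decarboxylase, had 783, 692 and 803 against 888, 935 and 789 (0.20, SE 0.09), with the third Zhx1-KO library inside the 46C-Ctrl range. Fdps, farnesyl diphosphate synthase, had 2801, 3097 and 2949 against 2650, 3058 and 2442 (-0.12, SE 0.09), with the second inside it. Mvd passed without Zhx1-KO replicate 3 (limma adjusted p = 0.0485) and Fdps without Zhx1-KO replicate 2 (limma adjusted p = 0.0446). Summed over the 7 genes the level was 13982 ± 515 normalized counts in 46C-Ctrl and 13159 ± 105 in the Zhx1-KO libraries (SD, n = 3 each).

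From squalene to cholesterol, 8 of 11 genes were lower, 1 was higher and 2 were not called, against 26.4% lower and 25.6% higher over all genes tested, and the median log2 fold change was -0.40. The 2 deepest falls were those of Ebp and Hsd17b7. Ebp, the sterol isomerase, had 422, 430 and 465 normalized counts in 46C-Ctrl (439 ± 22.9, SD, n = 3) and 216, 193 and 222 in the Zhx1-KO libraries (210 ± 15.1, SD, n = 3), a log2 fold change of -1.06 (SE 0.09, limma adjusted p = 7.1e-05). Hsd17b7, which reduces the ketone at carbon 3 after demethylation, had 634, 599 and 586 (607 ± 24.6, SD, n = 3) against 305, 246 and 327 (293 ± 41.9, SD, n = 3), a log2 fold change of -1.06 (SE 0.11, limma adjusted p = 0.000190). For both, the highest Zhx1-KO library was far below the lowest of 46C-Ctrl. Both calls held in all 18 alternative settings.

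The first steps of this segment fell by smaller amounts. Fdft1, squalene synthase, had 1568, 1571 and 1412 normalized counts in 46C-Ctrl and 1069, 1200 and 1191 in the Zhx1-KO libraries (log2 fold change -0.40, SE 0.07, limma adjusted p = 0.00245). Sqle, squalene epoxidase and a rate-limiting enzyme, had 2683, 2681 and 2527 against 1879, 1976 and 2018 (log2 fold change -0.43, SE 0.05, limma adjusted p = 0.000345). Lss, lanosterol synthase, had 1019, 1121 and 1066 against 740, 692 and 777 (log2 fold change -0.54, SE 0.07, limma adjusted p = 0.000453). None of these 3 genes overlapped between the groups, and all 3 calls held in every alternative setting tried.

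Of the enzymes that trim lanosterol, Cyp51, the lanosterol 14-demethylase, had 2303, 2215 and 2273 normalized counts in 46C-Ctrl and 1757, 1660 and 1792 in the Zhx1-KO libraries (log2 fold change -0.38, SE 0.05, limma adjusted p = 0.000519). Msmo1, the sterol 4-methyl oxidase, had 1159, 1247 and 1338 against 988, 1064 and 1021 (log2 fold change -0.28, SE 0.07, limma adjusted p = 0.0103). Nsdhl, which removes the oxidised methyl group with it, had 637, 617 and 622 against 444, 488 and 488 (log2 fold change -0.40, SE 0.07, limma adjusted p = 0.00210). All 3 genes were lower without overlap. Tm7sf2, a sterol 14-reductase, had 201, 224 and 228 against 149, 189 and 187, without overlap, and was not called (log2 fold change -0.32, SE 0.13, limma adjusted p = 0.0785).

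The last steps moved otherwise. Dhcr7, which makes cholesterol from 7-dehydrocholesterol, was the sterol arm gene called higher, with 992, 886 and 1052 normalized counts in 46C-Ctrl (977 ± 84.2, SD, n = 3) and 1156, 1225 and 1187 in the Zhx1-KO libraries (1189 ± 34.4, SD, n = 3), a log2 fold change of 0.29 (SE 0.07, limma adjusted p = 0.0133). Its groups did not overlap. Sc5d, the sterol C5-desaturase just before it, had 330, 377 and 498 against 417, 441 and 437, which overlapped (log2 fold change 0.13, SE 0.14, limma adjusted p = 0.5005). The ratio of Ebp to Dhcr7 was 0.451 ± 0.0305 (SD, n = 3) in 46C-Ctrl and 0.177 ± 0.0167 (SD, n = 3) in the Zhx1-KO libraries.

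**Figure D2:**
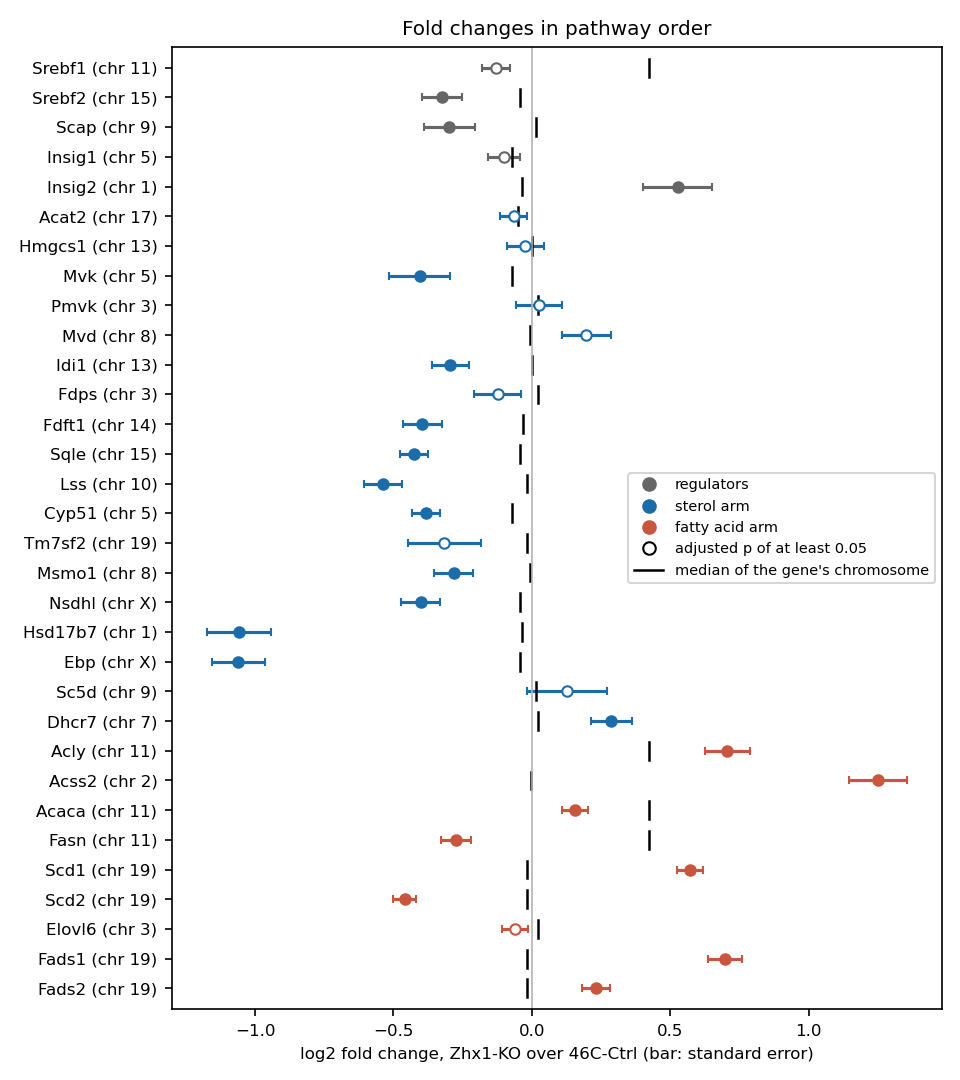
Log2 fold change of each of the 32 genes with its standard error as a bar, in pathway order, with open points for an adjusted p of at least 0.05 and a black tick at the median log2 fold change of the gene's chromosome. Acss2 reaches 1.25 and Ebp and Hsd17b7 -1.06, and the ticks of the chromosome 11 genes Srebf1, Acly, Acaca and Fasn stand at 0.42 while the others lie near 0.

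Both genes that supply cytosolic acetyl-CoA were higher. Acss2, which makes it from acetate, had 112, 123 and 115 normalized counts in 46C-Ctrl (117 ± 5.74, SD, n = 3) and 277, 270 and 290 in the Zhx1-KO libraries (279 ± 9.90, SD, n = 3), a log2 fold change of 1.25 (SE 0.11, limma adjusted p = 5.4e-05). Acly, ATP citrate lyase, which makes it from citrate, had 3680, 3000 and 3134 (3272 ± 360, SD, n = 3) against 5312, 5616 and 5044 (5324 ± 286, SD, n = 3), a log2 fold change of 0.71 (SE 0.08, limma adjusted p = 0.000273). The groups did not overlap for either gene. Acly is on chromosome 11, and relative to that chromosome's median its log2 fold change was 0.28 (limma adjusted p = 0.0227).

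The enzymes that build the chain, Acaca and Fasn, differed in direction, but both were lower once the median of their chromosome was removed. Acaca, acetyl-CoA carboxylase, had 2395, 2330 and 2514 normalized counts in 46C-Ctrl (2413 ± 93.2, SD, n = 3) and 2672, 2702 and 2684 in the Zhx1-KO libraries (2686 ± 15.2, SD, n = 3), a log2 fold change of 0.16 (SE 0.05, limma adjusted p = 0.0266). Fasn, fatty acid synthase, had 9800, 8768 and 9172 (9247 ± 520, SD, n = 3) against 7919, 7529 and 7469 (7639 ± 245, SD, n = 3), a log2 fold change of -0.27 (SE 0.05, limma adjusted p = 0.00378). Neither gene overlapped between the groups. Both lie on chromosome 11: against its median, Acaca turned to -0.27 (limma adjusted p = 0.00246) and Fasn was -0.70. The rise of Acaca was also lost without 46C-Ctrl replicate 1 or 2 or any 1 of the Zhx1-KO libraries (limma adjusted p from 0.0564 to 0.0756), with the replicate number as a block (0.0623) and without limma's trend (0.0871).

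The stearoyl-CoA desaturases, which put the first double bond into saturated chains, moved in opposite directions. Scd1 had 2506, 2415 and 2391 normalized counts in 46C-Ctrl (2437 ± 60.9, SD, n = 3) and 3672, 3697 and 3504 in the Zhx1-KO libraries (3625 ± 105, SD, n = 3), a log2 fold change of 0.57 (SE 0.05, limma adjusted p = 4.5e-05). Scd2, its paralogue, also on chromosome 19, had 34921, 35019 and 34583 (34841 ± 228, SD, n = 3) against 26082, 24827 and 25138 (25349 ± 654, SD, n = 3), a log2 fold change of -0.46 (SE 0.04, limma adjusted p = 8.0e-05). Neither gene overlapped between the groups, and both calls held in all 18 alternative settings. The ratio of Scd1 to Scd2 was 0.0700 ± 0.00157 (SD, n = 3) in 46C-Ctrl and 0.143 ± 0.00514 (SD, n = 3) in the Zhx1-KO libraries. Their close copies Scd3 and Scd4 had means of at most 3.82 normalized counts in either group and were not tested.

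The front-end desaturases, which make polyunsaturated chains, were both higher. Fads1, the delta-5 desaturase, had 1710, 1533 and 1743 normalized counts in 46C-Ctrl (1662 ± 113, SD, n = 3) and 2629, 2728 and 2714 in the Zhx1-KO libraries (2690 ± 53.4, SD, n = 3), a log2 fold change of 0.70 (SE 0.06, limma adjusted p = 6.4e-05). Fads2, the delta-6 desaturase, had 3078, 2845 and 2945 against 3480, 3576 and 3353, a log2 fold change of 0.23 (SE 0.05, limma adjusted p = 0.00623). Both were without overlap. Elovl6, which elongates palmitate, had 1635, 1684 and 1676 against 1562, 1587 and 1641, which overlapped (log2 fold change -0.06, SE 0.05, limma adjusted p = 0.325).

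Levels and fold changes gave different pictures of the fatty acid arm. Scd2 had the highest level of the 32 genes per length, 6376 normalized counts per kilobase of exon in 46C-Ctrl against 498 for Scd1. In normalized counts that are not divided by length, Scd2 and Fasn together held 75.2% ± 0.577 of the arm's summed normalized counts in 46C-Ctrl and 62.6% ± 0.945 in the Zhx1-KO libraries (SD, n = 3 each). The arm's summed level was lower, 59838, 57718 and 58273 against 53607, 52532 and 51837, although 6 of its 9 genes were higher. Without Scd2 and Fasn the sum was 14522 ± 593 in 46C-Ctrl and 19670 ± 477 in the Zhx1-KO libraries (SD, n = 3 each). The sterol arm's sum was lower as well, 25336, 26200 and 26393 against 22188, 22648 and 22781.

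**Figure D3:**
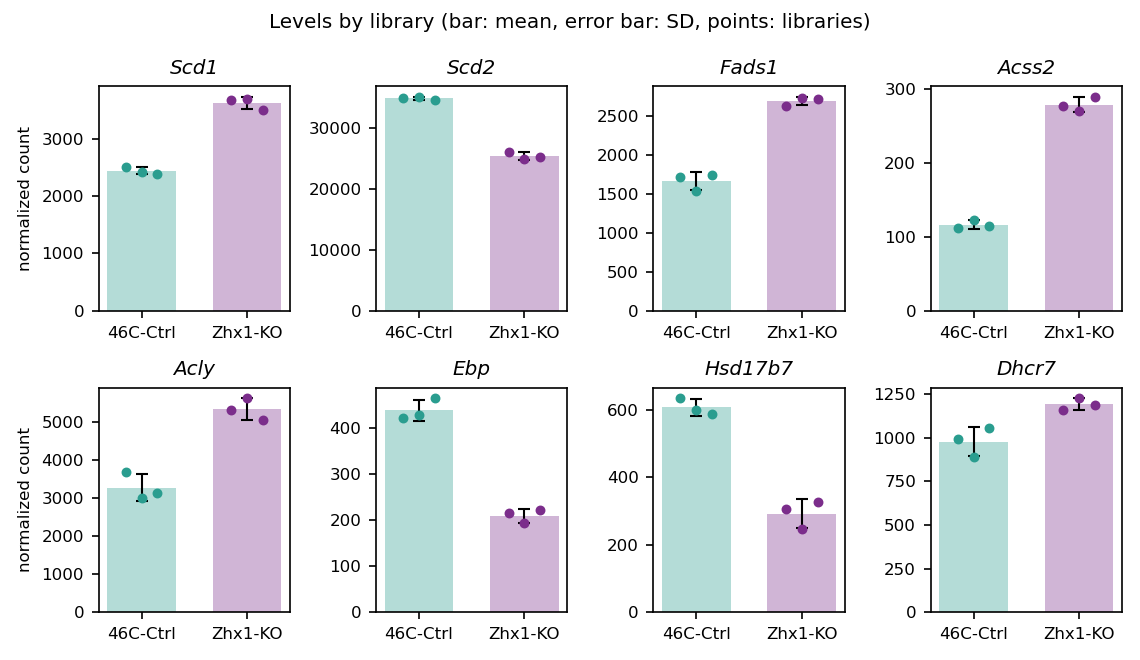
Normalized counts of Scd1, Scd2, Fads1, Acss2, Acly, Ebp, Hsd17b7 and Dhcr7 in 46C-Ctrl and Zhx1-KO, each on its own axis from 0, with bars for means, whiskers for the SD and 1 point per library. The points of the groups do not overlap for any of these genes, and Scd2, Ebp and Hsd17b7 are lower while the others are higher.

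Some exons are shared with other genes. The study's methods give a strand setting for mapping and for FPKM values, while the program behind the counts used here is not named, so its use of strand is not known. Fdft1 shares 774 of 4227 exon bases with Ctsb on the other strand, and Ctsb was higher (log2 fold change 0.20) while Fdft1 was lower. Tm7sf2 shares 532 of 4403 exon bases with Vps51 on the same strand, and Vps51 was higher (0.29). Fdps shares 1124 of 4208 with Gm43738, also on the same strand. Gm43738 had means of 0.650 normalized counts in 46C-Ctrl and 2.22 in the Zhx1-KO libraries and was not tested. Scap shares 985 of 7443 and Hmgcs1 557 of 4594 with annotated genes on the other strand, and further members share fewer bases. For Acss2, 395 of 10163 exon bases are shared with Gss, which was not called (0.06), and 197 with Ggt7, which rose from 68.9 ± 11.4 to 171 ± 22.0 normalized counts (SD, n = 3 in each group), both on the other strand. The part of these shared bases in the values was not tested.

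Other genes of the same biology were followed in lists. Of 11 further sterol synthesis genes tested, 5 were lower and the other 6 were not called by limma, with a median log2 fold change of -0.11. Lbr, a sterol 14-reductase of the nuclear envelope, fell from 4050 ± 243 to 2691 ± 175 normalized counts (log2 fold change -0.59), Cyb5b, a cytochrome b5, from 2741 ± 73.9 to 1703 ± 46.8 (-0.69), and Nus1, of dolichol synthesis, from 1714 ± 22.6 to 1235 ± 159 (-0.48; SD, n = 3 in each group). Of 19 genes of sterol uptake, transport and efflux, 3 were higher, 11 lower and 5 not called, with a median of -0.41. Among them Abca1, the cholesterol exporter, fell from 678 ± 45.0 to 214 ± 13.9 (-1.66), Npc2, which hands over cholesterol in lysosomes, from 4708 ± 119 to 2671 ± 129 (-0.82), and Soat1, which esterifies it, from 3612 ± 93.9 to 2414 ± 15.3 (-0.58; SD, n = 3 in each group).

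Further fatty acid synthesis genes were split in direction. Of 25 tested, 6 were higher, 10 lower and 9 not called, with a median log2 fold change of 0.02. Me1, malic enzyme and a source of NADPH, fell from 634 ± 14.2 to 233 ± 11.2 normalized counts (-1.44). The acyl-CoA synthetases Acsl3 and Acsl5 fell by 1.12 and 1.11 on the log2 scale, and Hacd2, a dehydratase of chain elongation, by 1.01. Of 19 genes that process or stabilise SREBP or act beside it, 2 were higher, 8 lower and 9 not called, with a median of -0.29. Prkaa2, a catalytic subunit of AMPK, fell from 1194 ± 114 to 509 ± 49.3 normalized counts (-1.23). Nfyc, a subunit of NF-Y, fell from 1011 ± 38.2 to 643 ± 32.8 (-0.65), and Sp1 rose from 2485 ± 127 to 3228 ± 146 (0.38; SD, n = 3 in each group). The other NF-Y subunits, Nfya (-0.02) and Nfyb (0.12), were not called.

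**Figure D4:**
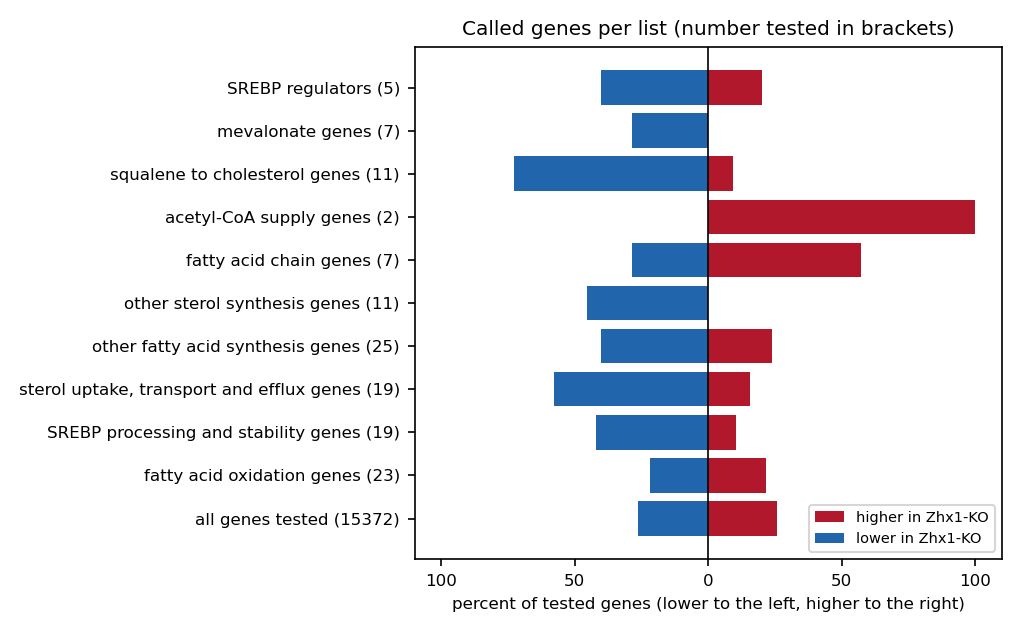
Percent of tested genes called by limma in each segment of the pathway and each further lipid list, lower in Zhx1-KO to the left and higher to the right, with the number tested in brackets and all genes tested as the last bar. The squalene to cholesterol genes were called lower in 8 of 11 cases and the acetyl-CoA supply genes higher in 2 of 2, while the bar of all genes is near even at 26.4% lower and 25.6% higher.

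Markers of cell types moved with the groups. Of 19 endoderm and liver-type markers tested, 17 were lower. Summed over the whole list, the level was 48349 to 54149 normalized counts in 46C-Ctrl and 18322 to 20054 in the Zhx1-KO libraries. Apoa2 and Apoc3 were at 0 in all Zhx1-KO libraries, but had means of at most 1.34 in 46C-Ctrl and were too low to be tested. Of 15 neural markers, 12 were higher and 2 lower, with sums of 4090 to 4607 and 13208 to 13807, and Pax6 was at 0 in all 46C-Ctrl libraries. A few genes with high values make up most of the endoderm and neural sums, so these sums do not describe the whole lists. The median log2 fold changes of the tested markers were -1.92 for the endoderm and liver-type list and 3.74 for the neural list. Of 12 endothelial markers, 10 were higher and 1 lower, with summed means of 3150 and 6070. Their median log2 fold change was 3.07, so this sum does not describe the whole list either. Of 13 markers of cardiac progenitors and cardiomyocytes, the labelled cell type, 5 were higher and 6 lower, and none was at 0 in all libraries of a group. Hand1, a transcription factor of the first heart field, fell from 5774 ± 329 to 198 ± 28.1 normalized counts, and Myl7, an atrial myosin light chain, rose from 841 ± 47.7 to 1886 ± 83.1 (SD, n = 3 in each group). Both lie on chromosome 11. Relative to that chromosome's median, the log2 fold change of Hand1 was -5.29 and that of Myl7 0.74, against 1.17 for Myl7 before. The part of these markers in the sterol and fatty acid values was not tested.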

How the data were processed

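PolyA RNA was measured at the CP stage in 3 46C-Ctrl and 3 Zhx1-KO libraries. The submitters' processing notes name cutadapt 1.18, HISAT2 2.1.0, StringTie 1.3.4d, Cufflinks and DESeq2, with build GRCm38. The deposited values are a signal per gene, read counts scaled by the authors with a size factor for each library. The sources used here do not name the counting program. The values are whole multiples of a step per library (0.880 to 1.05), 100% of them within 0.01, which gave 13769967 to 15940874 recovered reads per library. The steps of Zhx1-KO replicates 1 and 2 were 1.01 each, close to 1.

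A gene entered the test when its mean over all 6 libraries reached 10, which left 15372 of 25701. The log2(value + 1) was fitted to the group alone in limma 3.58.1 (R 4.3.3) with its intensity trend, two-sided, and p-values were adjusted after Benjamini and Hochberg across those genes. The exact permutation test of 3 against 3 cannot go below 0.1. Whether the libraries came from separate cultures is not given in the labels, so p-values measure the spread between libraries, which may be technical. In simulated data of this comparison, on 15208 genes, limma called 66 of 98 genes changed 2-fold, 37 of 96 changed 1.5-fold and 8 of 15014 unchanged. Far fewer genes were changed there than the 52.0% called in the data. The adjusted threshold was therefore stricter, and these shares do not measure the power of the real comparison. Gene positions and exon lengths are from GENCODE (GRCm38) and 15153 of the genes tested had a position. Close copies of Acat2 and Idi1, named Acat3 and Idi2, were too low to be tested.

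The members and lists were chosen with earlier results of these data known. Nfya, Nfyb and Ddx3y were named after their values were seen. Otherwise all 32 genes are named, with up to 4 tested genes of each other list by smallest adjusted p, those that share exons or a close copy, and Zhx1. Some genes that this rule would name are not reported here. Same-numbered libraries deviated from their group means with correlations of 0.00419, -0.0690 and 0.000587. Alternatives covered the pseudocount, the filter, quantile normalization, a trimmed mean rescaling, no trend, chromosome medians removed, the block, each library left out, and, added after seeing the data, edgeR 4.0.16 and DESeq2 1.42.0 on the recovered reads.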

Additional observations from a re-analysis of the deposited data

How the results depend on the processing

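Calls in the arms changed little with the processing. edgeR, with or without its own filter, and DESeq2 on recovered reads gave all 32 genes the same direction and side of the threshold, as did pseudocounts of 0.5 and 10, a minimum mean of 50, no filter and the trimmed mean rescaling. Under quantile normalization 2 sterol arm genes were higher, 1 fatty acid arm gene was lower and 0 regulators were lower by limma (1 at an unadjusted p under 0.05, 2 by edgeR and DESeq2 on recovered reads); Srebf2, Scap, Msmo1 and Fasn lost their calls, Mvd and Tm7sf2 gained one, and Insig1 (0.0017), Acat2 (0.038), Hmgcs1 (0.054) and Elovl6 (0.038) changed sign. Without the trend 1 regulator was lower and 5 fatty acid arm genes were higher, since Scap and Acaca were lost. With the replicate block 5 fatty acid arm genes were higher, since Acaca was lost, and no other gene changed; the deviations gave no sign that equal numbers pair the libraries. With chromosome medians removed Acaca was reversed (-0.27). With 1 library left out, 1 to 2 sterol arm genes were higher, 1 to 3 regulators were lower, and the difference between the arms ran from -0.61 to -0.49. The log2 fold changes of 3 genes that were not called then crossed 0: Hmgcs1 (-0.069 to 0.035), Pmvk (-0.028 to 0.071) and Sc5d (-0.0055 to 0.29). The cause was not tested.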

Other observations

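Fatty acid oxidation, the route that breaks chains down, did not move one way. Of 23 genes tested, 5 were higher, 5 lower and 13 not called by limma, with a median log2 fold change of 0.01. Acadvl, the very long chain acyl-CoA dehydrogenase, had 438, 413 and 441 normalized counts in 46C-Ctrl and 1067, 1122 and 1054 in the Zhx1-KO libraries (log2 fold change 1.33, limma adjusted p = 3.7e-06). It lies on chromosome 11, and relative to that chromosome's median its log2 fold change was 0.90. Decr1, which handles unsaturated chains, was higher (0.67), and Hadhb, of the mitochondrial trifunctional protein, was lower (-0.67). Cpt1a, which carries chains into mitochondria, fell from 79.1 ± 8.61 to 15.4 ± 7.93 normalized counts (SD, n = 3 in each group).

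Of 12 proliferation genes, 6 were higher, 1 lower and 5 not called, with a median log2 fold change of 0.19. Top2a rose from 11568 ± 348 to 19248 ± 1054 normalized counts and Aurkb from 1389 ± 83.9 to 2272 ± 82.0 (SD, n = 3 in each group), and both lie on chromosome 11. Relative to that chromosome's median, their log2 fold changes went from 0.73 to 0.31 for Top2a and from 0.71 to 0.28 for Aurkb. Mcm6 and Mcm3, helicase subunits of DNA replication on chromosome 1, rose by 0.40 and 0.27 on the log2 scale.

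Ratios between related genes also differed between the groups. The ratio of Fads1 to Fads2 was 0.562 ± 0.0271 in 46C-Ctrl and 0.776 ± 0.0292 in the Zhx1-KO libraries, and that of Srebf1 to Srebf2 was 0.287 ± 0.0154 and 0.328 ± 0.0144 (SD, n = 3 in each group).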
